A study of Mus musculus with 6 samples.

Results

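A set of 3 stretches of the mouse genome, grouped as multi-copy loci, was examined for mSin3A occupancy in CD8 T cells. They were the chromosome 17 copy of ribosomal DNA named Rn45s, the start of the assembled chromosome 11 with the gene Sfi1, and a very dense stretch of chromosome 6. Their copy number was not measured. The members were all listed islands (regions called enriched for ChIP reads) that shared at least 1 bp with chr17:39975000-39990000, chr11:3000000-3110000 or chr6:47580000-47750000 of build mm9. They numbered 22 of 54058 islands over the 4 lists, in 7 of 23510 merged regions. The windows were chosen by the high read numbers and reads per kb of their islands in these same lists, so reads, densities and ranks are given as a description, with no test.

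The libraries came from splenic T cells sorted as TCRbeta high and CD8+. One group of mice was Tcf1-/-Lef1-/-, both factors having been deleted with CD4-Cre, and is called deficient below, and the other was wild type (WT). The factors are related HMG-box proteins of the T cell lineage, and Cre driven from Cd4 sequences acts in developing T cells, so other cells of the animal keep both genes. The sources used here do not give the age or number of the animals, or whether the WT mice carried Cre. ChIP was done with an antibody against mSin3A in condition 1 and in condition 2 for each genotype, but what set these conditions apart is not stated in the labels. Each group is therefore 1 library, and no difference below has a replicate check. The lists carry positions and no gene names, so the cell type was not checked from them. The list of deficient condition 1 held 15954 islands with 1901826 reads and that of deficient condition 2 held 13556 islands with 1917097 reads, against 13397 islands with 1857866 reads in WT condition 1 and 11151 islands with 1792952 reads in WT condition 2.

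mSin3A is the scaffold of a co-repressor complex that brings histone deacetylases to chromatin. Ribosomal DNA encodes the 45S precursor of the large ribosomal RNAs, is transcribed by RNA polymerase I and lies in long tandem arrays, of which a genome assembly shows few copies. Sfi1 encodes a centrin-binding protein of the centrosome. Where an assembly shows fewer copies than the genome holds, reads of all copies can pile up on those shown, so that read density there can reflect copy number as well as occupancy. The input libraries were not analysed here, and the copy number of these sequences and mSin3A binding cannot be told apart at any of the 3 windows.

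The gene names of the windows could not all be checked, because the annotation at hand is RefSeq on GRCm38.p6 and its positions were not set against mm9. Rn45s was not matched in that gene table or in its promoter table. Sfi1 was matched in the gene table and not in the promoter table. The chromosome 6 window had been described as close to a tRNA gene cluster. In the order of RefSeq genes, 50 of the 53 tRNA genes of chromosome 6 lie beyond Pdia4, 48 of them with a cysteine tRNA symbol, and 10 other genes separate Pdia4 from the nearest of these. The stretch between Ezh2 and Pdia4 holds 14 genes and no tRNA gene. Its genes include Rn4.5s, a tandemly repeated small RNA gene of rodents, and the Y RNA genes Rny3 and Rny1. Which of these genes fall in the mm9 window was not determined, and it is called here by its chromosome.

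The 3 windows behaved differently in the 4 lists. The chromosome 17 window was listed in both deficient libraries and in neither WT library. The chromosome 11 window held a very large island in WT condition 1, a small island in each deficient library and none in WT condition 2. The chromosome 6 window held a pair of dense blocks in every library, with nearly the same reads in both genotypes. Together the windows took 1.15% (95% Wilson interval 1.14 to 1.17) of all island reads in deficient condition 1 and 1.17% (1.15 to 1.18) in deficient condition 2, against 1.97% (1.95 to 1.99) in WT condition 1 and 0.721% (0.709 to 0.733) in WT condition 2. The deficient libraries thus lay close together and between the WT libraries. Without the chromosome 11 island, an alternative chosen after seeing the data, the share in WT condition 1 was 0.693%. The ribosomal DNA island alone took 0.477% and 0.474% in deficient conditions 1 and 2. The chromosome 6 window alone took 0.669% and 0.689% in deficient conditions 1 and 2, against 0.685% and 0.721% in WT conditions 1 and 2. Intervals here and below cover counting error only, since libraries were amplified by PCR and reads are not independent molecules.

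**Figure D1:**
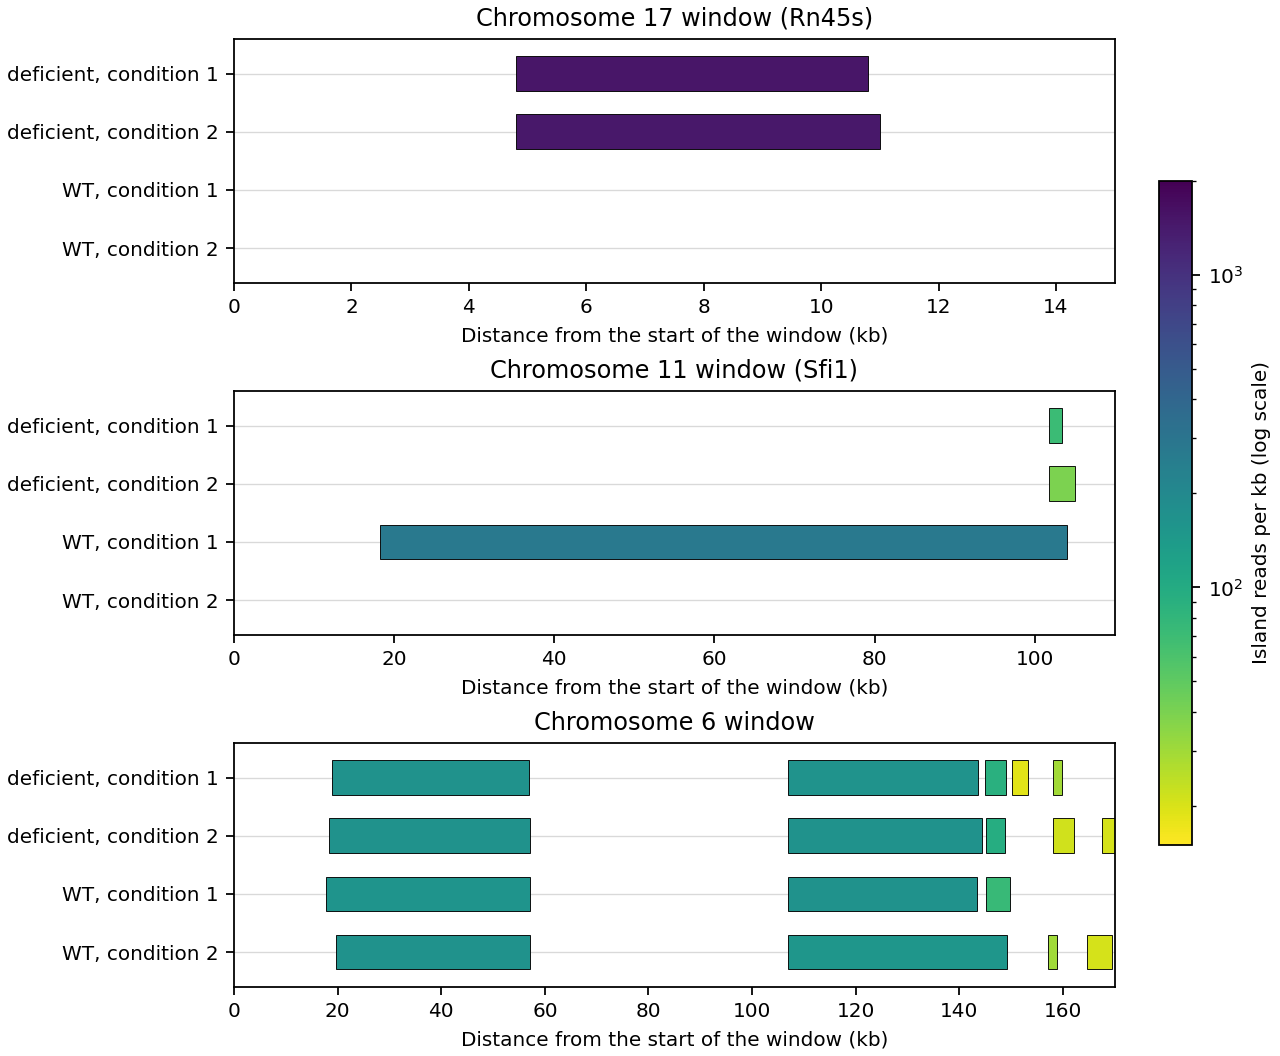
Islands listed in each window, with distance from the window start in kb on the horizontal axis, a row for each library and colour for reads per kb on a log scale. The chromosome 17 rows are empty for both WT libraries, the long chromosome 11 bar belongs to WT condition 1, and the 2 dense blocks of chromosome 6 recur in all 4 rows.

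At the ribosomal DNA copy, deficient condition 1 listed a single island, chr17:39979801-39985799, with 9074 reads (exact Poisson 95% interval 8888 to 9263). Deficient condition 2 listed chr17:39979801-39985999 with 9080 reads (8894 to 9269). No island was listed there in WT condition 1 or in WT condition 2. A region that is not listed has an unknown read number, so no fold between the genotypes can be given. Of all 23510 merged regions, 2111 (8.98%) showed the same pattern of calls, present in both deficient and in neither WT library. Of the 63 merged regions with an island above 100 reads per kb in any library, 4 lie in the windows. Among the 63, 10 (15.9%) had this pattern, the ribosomal DNA region included. The opposite one, called in both WT and in neither deficient library, was found in 4 (6.35%). Over all merged regions the opposite pattern was found in 685 (2.91%).

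The ribosomal DNA island had 1513 reads per kb (1482 to 1544) in deficient condition 1 and 1465 reads per kb (1435 to 1495) in deficient condition 2. That was 55.7 and 52.2 times the median island density of the same list, and the island ranked 1 in its list both by density and by reads. The densest island of WT condition 1 had 655 reads per kb and that of WT condition 2 had 675 reads per kb, both elsewhere in the genome. The conditions differed little: the ratio of condition 2 over condition 1 in deficient cells was 0.972 (0.944 to 1.00) per kb after centring on the median ratio of regions called in all 4 libraries. The start was the same in both lists and the ends were a single step of 200 bp apart.

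The ribosomal DNA island stood alone. No list held another island within 500 kb of the window. The next island downstream began 1081 kb and 1080 kb beyond it in deficient conditions 1 and 2, and 1081 kb and 1080 kb beyond it in WT conditions 1 and 2. Those neighbours, listed in all 4 libraries at about the same place, were of ordinary size, with 88 and 110 reads in the deficient libraries against 89 and 119 reads in the WT libraries. The nearest island upstream lay at different places, 2563 and 2565 kb from the window in the deficient libraries and 1301 and 1957 kb from it in the WT libraries.

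**Figure D2:**
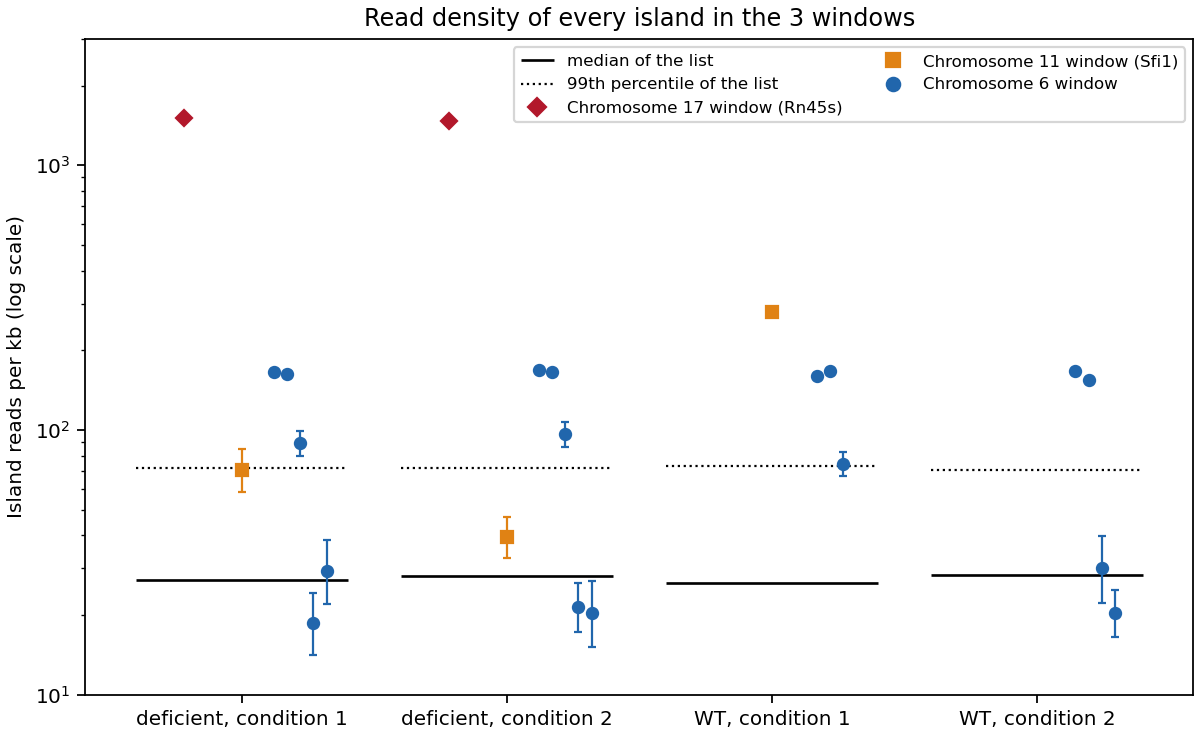
Reads per kb (log axis) of each of the 22 islands, by library and window, with exact Poisson 95% intervals, the median of the whole list (solid line) and its 99th percentile (dotted line). The ribosomal DNA points, at 1513 and 1465 reads per kb, appear in the deficient libraries, and the WT condition 1 point of the Sfi1 window lies at 279 reads per kb.

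In the Sfi1 window, WT condition 1 differed from the other 3 libraries. Deficient condition 1 listed chr11:3101801-3103399 with 113 reads (93.1 to 136) and deficient condition 2 listed chr11:3101801-3104999 with 126 reads (105 to 150.0). WT condition 1 listed chr11:3018201-3103999, a single island of 85.8 kb with 23922 reads (23620 to 24227), the most reads of any island in the 4 lists. WT condition 2 listed none. The small islands of the deficient libraries lay at the far end of the stretch covered in WT condition 1. This pattern, called in both deficient libraries and in WT condition 1 but not in WT condition 2, was shared by 1149 of all merged regions (4.89%) and by 9 of the 63 dense ones (14.3%). Both counts include the Sfi1 region itself. Where a call required an island to cover at least 50% of the merged region, the Sfi1 region was called in WT condition 1 alone.

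Read density in the Sfi1 window was 70.7 reads per kb (58.2 to 85.0) in deficient condition 1 and 39.4 reads per kb (32.8 to 46.9) in deficient condition 2, against 279 reads per kb (275 to 282) in WT condition 1. The WT island ranked 4 by density among 13397 islands, at 10.5 times its list's median. The deficient islands ranked 187 of 15954 and 2483 of 13556, at 2.60 and 1.40 times the median. Within condition 1, the density of the called bases in deficient cells was 0.252 (0.208 to 0.303) of that in WT cells after median centring, a log2 ratio of -1.99. It sets 1.6 called kb in deficient cells against 85.8 called kb in WT cells. The reads of deficient cells over the remaining bases are unknown, so no fold for the whole stretch can be given.

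Of 7605 regions called in both libraries of condition 1, 80 (1.05%) had at least 2-fold fewer reads per called kb in deficient cells. The Sfi1 region stood 2nd lowest of all. High reads chose the window, and they come from its WT condition 1 island, so nothing is read from this rank. In condition 2 the deficient library listed an island and the WT library did not, so no ratio can be given there. The 2 WT libraries thus differed from each other at this window by more than either differed from the deficient libraries in called bases, with 85.8 kb called in WT condition 1 and none in WT condition 2, against 1.6 and 3.2 kb in the deficient libraries. The source of this difference was not tested.

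Next to the Sfi1 window, islands had ordinary densities in all 4 lists. Within 500 kb of the window, deficient condition 1 listed 11 and deficient condition 2 listed 10 islands, with median densities of 29.1 and 27.9 reads per kb. WT condition 1 listed 6 and WT condition 2 listed 5, with medians of 35.8 and 34.3 reads per kb. No flanking island exceeded 59.3 reads per kb. The nearest one began 54.0 and 55.6 kb beyond the window in the deficient libraries and 77.2 and 55.4 kb beyond it in the WT libraries.

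The window lies at the centromere side of chromosome 11, where the assembly begins, and no list held an island that started before 3 Mb on any chromosome. Other chromosomes also had islands in the 200 kb after that point, and so did chromosome 11 beyond the Sfi1 window. The latter are among the flanking islands described above. Counted together, islands outside the Sfi1 window numbered 11 in deficient condition 1 and 9 in deficient condition 2. They numbered 16 in WT condition 1 and 5 in WT condition 2. Of these, 2 in each deficient library exceeded 100 reads per kb, against 2 in WT condition 1 and 1 in WT condition 2. The largest of them held 1242 and 1442 reads in the deficient libraries and 1855 and 791 reads in the WT libraries, fewer than the 23922 reads of the Sfi1 window in WT condition 1. Median densities per kb of these islands were 29.6 and 45.0 reads in the deficient libraries against 20.9 and 35.0 reads in the WT libraries. The medians of the whole lists were 27.2 and 28.1 reads per kb in deficient and 26.5 and 28.2 in WT libraries.

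**Figure D3:**
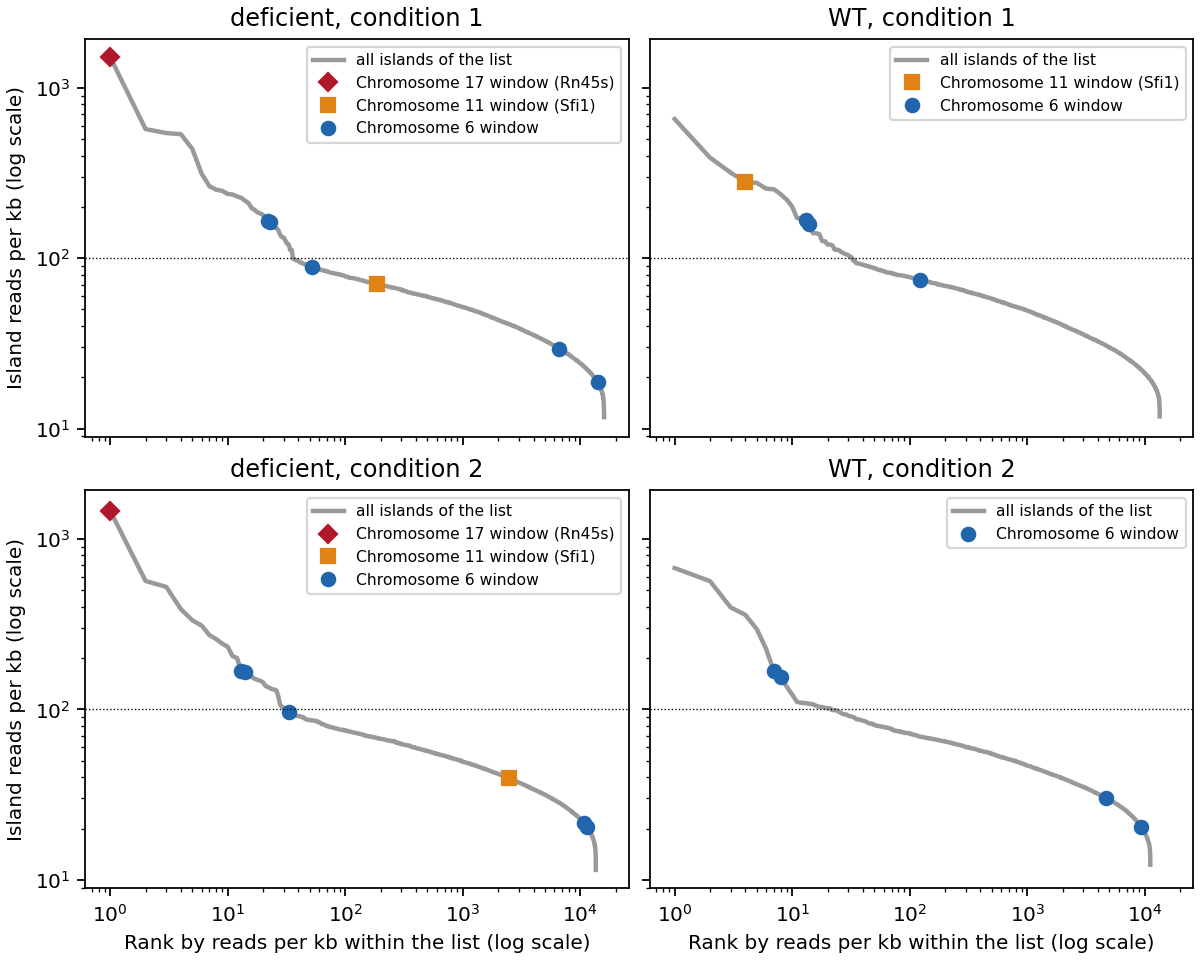
Islands of each list ranked by reads per kb (both axes logarithmic), with the islands of the 3 windows marked and the dotted line at 100 reads per kb. The ribosomal DNA island opens both deficient curves, and the Sfi1 island is 4th in WT condition 1. The main islands of the chromosome 6 blocks hold ranks between 7 and 23 in all 4 lists. Where the second block is split, its smaller part ranks 52 and 33 in deficient conditions 1 and 2 and 122 in WT condition 1.

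On chromosome 6, the first block, chr6:47597801-47637199, held 6293 reads in deficient condition 1 and 6548 reads in deficient condition 2, against 6291 reads in WT condition 1 and 6273 reads in WT condition 2. Per kb, this came to 166 and 169 reads in deficient cells against 160 and 167 reads in WT cells. The second block, chr6:47687001-47729799, held 6328 and 6518 reads in the deficient libraries and 6427 and 6508 reads in the WT libraries, with 156 and 159 against 157 and 154 reads per kb. Both blocks were called in all 4 libraries, as were 5637 merged regions (24.0%). For each block the density ranges of the genotypes overlapped.

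Median-centred ratios of deficient over WT stayed near 1 in both blocks. For the first block the density ratio was 1.03 (0.997 to 1.07) in condition 1 and 1.02 (0.981 to 1.05) in condition 2. For the second block it was 0.990 (0.956 to 1.02) in condition 1 and 1.04 (1.00 to 1.07) in condition 2. The ratios of condition 2 over condition 1 had the same size, at 1.02 in deficient and 1.03 in WT cells for the first block, and at 1.02 and 0.974 for the second. By reads alone, the centred log2 ratio of the first block was 0.062 (0.011 to 0.11) in condition 1 and 0.15 (0.097 to 0.20) in condition 2. That of the second block was 0.039 (-0.011 to 0.089) and 0.087 (0.038 to 0.14).

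Over the listed islands of the chromosome 6 window the centred log2 ratio of reads was 0.063 in condition 1 and 0.12 in condition 2. These sums cover 5 islands in each deficient library, 3 in WT condition 1 and 4 in WT condition 2. A stretch missing from a list adds no reads to them, though its read number is unknown. Scaling by total island reads lowers every log2 ratio of reads, not per kb, by 0.095 in condition 1 and by 0.18 in condition 2. It turned the ratios of the window to -0.032 and -0.066, so no direction can be given. Neither block came near the 2-fold limit that 18 of 5637 regions (0.319%) passed upward and 23 (0.408%) downward in both conditions. In the 40 other regions with at least 1000 reads in every library, the centred log2 density ratio ran from -0.29 to 0.16 in condition 1 and from -0.50 to 0.31 in condition 2, and 25 and 20 of them stayed within 0.1 of zero. The values of both chromosome 6 blocks lay inside these ranges. The 23 other regions called in all 4 libraries with an island above 100 reads per kb spread more widely, from -2.12 to 1.04 in condition 1 and from -2.08 to 0.86 in condition 2.

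**Figure D4:**
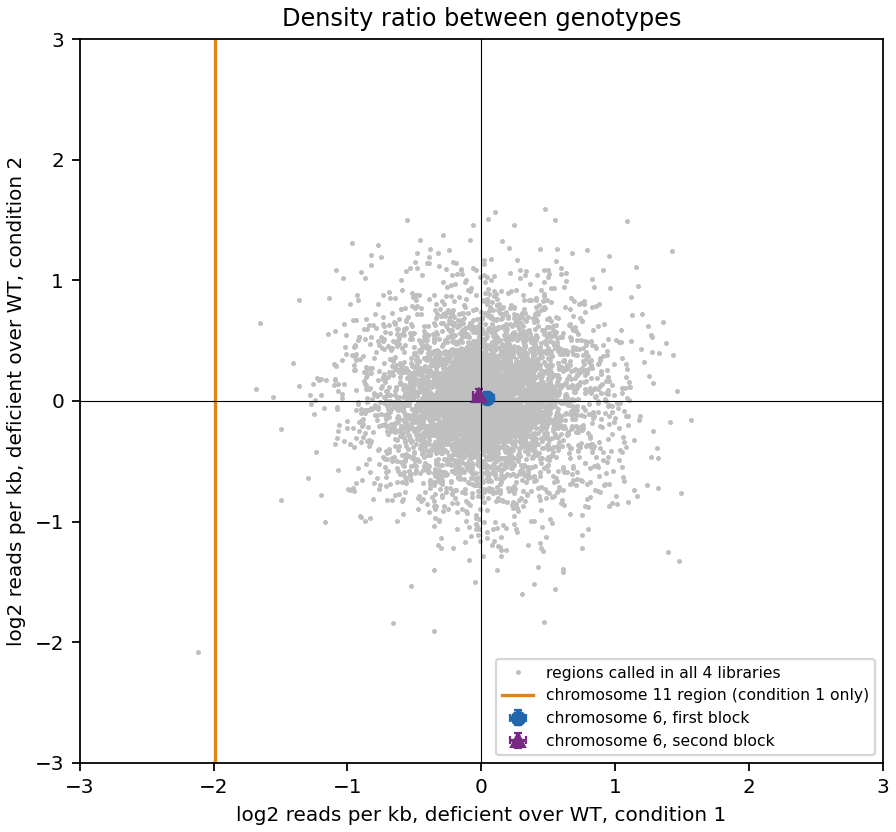
Centred log2 ratio of reads per kb, deficient over WT, in condition 1 (horizontal) and condition 2 (vertical) for the 5637 regions called in all 4 libraries (grey), with the chromosome 6 blocks and their exact 95% intervals. Both blocks sit at the centre of the cloud, while the Sfi1 region, which has a value in condition 1 alone, is drawn as a line at -1.99.

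The edges of the chromosome 6 blocks were also alike between libraries. Starts of the first block spread over 1800 bp and its ends over 200 bp. The second block began at the same base in all 4 lists and its ends spread over 1000 bp. No list held an island in the 49.8 kb between the blocks. In deficient condition 1, deficient condition 2 and WT condition 1 the second block was split by a gap of 1401, 801 and 1801 bp, with a main part of 163, 165 and 167 reads per kb. Reads in the smaller part numbered 356, 347 and 343, at densities of 89.0, 96.4 and 74.6 per kb. WT condition 2 listed the same stretch unbroken, at 154 reads per kb.

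Beyond the second block, small islands of ordinary density varied between lists. The region chr6:47730201-47733199 was listed in deficient condition 1 alone, with 56 reads, a pattern of 14.7% of all merged regions. The region chr6:47737201-47742199 held 53 and 90 reads in deficient conditions 1 and 2 and 48 reads in WT condition 2, a pattern of 3.53% of regions. The region chr6:47744601-47749999 held 49 reads in deficient condition 2 and 98 reads in WT condition 2, a pattern of 0.749% of regions. With at least 50% of the merged region covered, the region starting at 47737201 was called in deficient condition 2 alone and that starting at 47744601 in WT condition 2 alone. Their densities, 18.7 to 30.0 reads per kb, lay on either side of the list medians of 27.2 and 28.1 reads per kb in deficient and 26.5 and 28.2 reads per kb in WT libraries. These regions thus lie next to the dense blocks but do not share their density.

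The 22 islands ran from 18.7 to 1513 reads per kb. None lay between 96.4 and 154 reads per kb, the interval that holds the 100 reads per kb used here as a limit. Above 100 reads per kb lay 3 of 7 islands in deficient condition 1, 3 of 7 in deficient condition 2, 3 of 4 in WT condition 1 and 2 of 4 in WT condition 2. In the whole lists these shares were 0.219%, 0.221%, 0.239% and 0.188%, and since density chose the windows nothing is read from the difference. The dense islands of the windows held 57.2% and 58.2% of the reads in all such islands of the deficient lists, and 68.5% and 50.9% in the WT lists. The densest regions elsewhere varied in their calls as the windows did. The region chr3:5860201-5860999 was listed in all 4 libraries, with 457 and 453 reads in deficient and 523 and 539 reads in WT cells, and chr6:3150401-3152999 also recurred in all 4, with 640 and 654 against 777 and 791 reads. The region chr11:108872801-108873999 was listed in the deficient libraries alone, with 433 and 464 reads, and chr10:7228801-7238399 in the WT libraries alone, with 3047 and 3168 reads. The region chr16:11141601-11144799 held 437 and 418 reads in deficient cells and 548 reads in WT condition 1, and was not listed in WT condition 2, the same pattern as the Sfi1 region.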

How the data were processed

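The authors deposited 1 island list for each of the 4 ChIP libraries, giving its position and, in the last column, a whole number taken as the unscaled count of reads in the island. Per the submitters' processing notes, FastQC, Bowtie2 2.2.5, SICER 1.1 and mm9 were used. Not given in the sources used here: SICER settings, the handling of reads that align to several places or are duplicated, and the use of the inputs. Any of these could set whether a multi-copy stretch is listed and with how many reads. Starts are 1-based (1 was added), ends as deposited, and width is deposited end minus start.

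Islands sharing a base or touching were merged into regions. Read ratios were centred on the median of regions called in all 4 libraries. Poisson and Clopper-Pearson intervals are exact at 95%. With 1 library a group no test was made. The members, windows and the 100 reads per kb limit were chosen with earlier results of these data known. Named were, within the windows, every region with an island above that limit and the region with the most reads, and, outside them, the 5 densest regions. Functions were tested on simulated data. Python 3.11.15, numpy 2.4.6, pandas 2.3.3, scipy 1.17.1 and matplotlib 3.10.9 were used.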

Additional observations from a re-analysis of the deposited data

Results flagged for a closer look

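At the Sfi1 region the deficient and WT libraries of condition 1 differed in reads and called length, and both listed an island. The libraries of condition 2 differed in the call itself, which is an unlike measure. Deficient condition 1 held 113 reads there against 23922 reads in WT condition 1, whereas in condition 2 the deficient library listed an island with 126 reads and the WT library listed none. The WT reads in condition 2 are unknown, and the difference between conditions was not tested.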

How the results depend on the processing

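Of 71 alternative values for 28 results, 48 stayed within 1.5 times the value reported (counts and ranks) or within its 95% interval (ratios and shares), in the same direction. No paired analysis was possible because each group is 1 library. Over the listed islands of the chromosome 6 window, whose number differed between lists, the centred log2 ratio of reads was 0.063 in condition 1 and 0.12 in condition 2. It became -0.032 and -0.066 with total island reads, -0.046 and -0.058 with totals that leave out islands above 100 reads per kb, and 0.0014 and 0.031 unscaled. The log2 ratio per kb was -0.058 and 0.033, with 0.063 and 0.12 over all bases of the merged regions and, in condition 2, -0.069 with total island reads. Over all bases of its merged region the Sfi1 ratio per kb in condition 1 was -7.66 in place of -1.99; this counts uncalled bases as holding no reads and is no density fold. Keeping the islands richest in reads (upper 50% of a list), 4 of the 7 regions and 2 of the 4 WT condition 2 islands were left. Ranked by reads, the leading chromosome 6 island came 3, 3, 3 and 2 in place of 22, 13, 13 and 7 (deficient conditions 1 and 2, WT conditions 1 and 2). Among islands of at least 1 kb it came 10 and 6 in the deficient libraries. The Sfi1 island came 6294, 5741 and 1 by reads in place of 187, 2483 and 4 (deficient conditions 1 and 2, WT condition 1). Without that WT island, the share of island reads in WT condition 1 was 0.693% in place of 1.97%. Regions with at least 2-fold fewer reads in deficient cells in both conditions numbered 38 with total island reads, in place of 23. With a reciprocal overlap of 50%, 3 of the 7 regions lost calls: the Sfi1 region and the chromosome 6 regions starting at 47737201 and 47744601. The depth of whole libraries is unknown, and a region missing from a list has no read number.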
